A study of Homo sapiens with 18 samples.

Results

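The 37 genes described here are those of the mitochondrial genome: 13 mRNAs, 2 rRNAs and 22 tRNAs, out of 60623 genes in the table. They were chosen by name, as every gene whose symbol starts with MT-. RNA came from 16D cells, a prostate cancer line made from LNCaP that grows without androgen, labelled wild type. Enzalutamide, an antiandrogen that blocks the androgen receptor, was given at 10 µM. Exposure lasted 24, 48, 96 or 144 h in 4 groups and over 2 months in the long-term group, and control cells are labelled DMSO. Each of the 6 groups had 3 libraries, 18 in all, and no harvest time is stated for DMSO. The labels do not say that replicates were separate cultures, so the p-values reflect variation among these libraries only, which may be technical. All libraries came from 1 line, every enzalutamide group had the same dose, and every comparison with DMSO used the same 3 control libraries.

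Human mitochondrial DNA is a small circle transcribed from both strands into long precursors that carry several genes each. The tRNAs sit between most of the other genes, and cutting them out frees the rRNAs and mRNAs, so neighbouring transcripts share a precursor but can differ in processing and stability. The proteins made from these mRNAs are core subunits of the respiratory chain complexes I, III and IV and of the ATP synthase, complex V, while nuclear genes supply all other subunits and the transcription machinery. Most of the mRNAs and both rRNAs carry a poly(A) tail or a short stretch of A after processing, whereas MT-ND6, on the light strand, is known to lack a stable one.

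Levels are TPM, relative abundances scaled to the same total in each library and corrected for gene length. Because TPM hold no read numbers, sequencing depth is unknown here, and counting error was not estimated. In bulk RNA, fewer cells with a transcript and less transcript per cell cannot be told apart, and a share of TPM also moves when other genes move. Among markers, all 8 prostate luminal genes were at or above 4.08 TPM in every library. All 5 leukocyte and 3 basal markers stayed under 1 TPM. Of 5 fibroblast markers only COL1A1 passed 1 TPM, with 6.21 to 38.4 TPM over the 18 libraries, and of 3 endothelial markers only VWF did, reaching 2.66 TPM. The part of these other transcripts in the results was not tested.

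Some stretches of the genome are shown because the results turn on genes that touch each other there. They are from GENCODE release 29 on GRCh38, plus strand, with the tRNA in capitals and 30 bases of each touching neighbour in lower case. There is no gap between MT-RNR1, MT-TV, MT-RNR2 and MT-TL1, in that order, and MT-ND1 starts 2 bases after MT-TL1.
MT-RNR1, MT-TV and MT-RNR2, chrM:1572-1700: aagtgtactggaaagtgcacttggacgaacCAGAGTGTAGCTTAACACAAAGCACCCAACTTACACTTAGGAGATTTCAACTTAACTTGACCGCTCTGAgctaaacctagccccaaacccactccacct
MT-RNR2 and MT-TL1, chrM:3200-3304: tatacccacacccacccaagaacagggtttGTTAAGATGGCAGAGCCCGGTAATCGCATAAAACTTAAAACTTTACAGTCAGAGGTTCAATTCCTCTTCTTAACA
MT-ND1 and MT-TI, chrM:4233-4331: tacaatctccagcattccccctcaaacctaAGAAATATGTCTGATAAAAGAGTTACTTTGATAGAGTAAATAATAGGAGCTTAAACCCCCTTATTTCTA
MT-TM and MT-ND2, chrM:4402-4499: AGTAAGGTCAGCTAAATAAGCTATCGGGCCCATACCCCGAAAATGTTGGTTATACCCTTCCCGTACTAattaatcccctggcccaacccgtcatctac
MT-ATP8 overlaps MT-ATP6 and MT-ND4L overlaps MT-ND4, and each of these pairs is known to lie on a shared transcript. MT-ATP6 also meets MT-CO3 at base 9207, which both include. MT-ATP8 is shown because its high level can be touched by its overlap with MT-ATP6. It is given whole, with the 46 bases it shares with MT-ATP6 in capitals; they are 22.2% of its length, and how reads there were split is not known.
MT-ATP8, chrM:8366-8572: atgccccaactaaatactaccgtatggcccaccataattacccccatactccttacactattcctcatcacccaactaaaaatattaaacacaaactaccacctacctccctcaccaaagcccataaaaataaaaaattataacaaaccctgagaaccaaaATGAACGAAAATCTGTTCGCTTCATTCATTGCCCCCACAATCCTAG
MT-ND4L overlaps MT-ND4 by 7 bases, 2.36% of its length. These genes also have nuclear copies: the table lists 407 genes named as such, which together held 1.05% to 1.16% as much TPM as the 37 genes in any library. The highest, MTATP6P1, averaged 1885 TPM over the 18 libraries, and how the authors' counting split such reads is not given in the sources used here.

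The mitochondrial genes were among the most abundant of all: 16 of the 20 genes with the highest mean TPM belonged to the set, led by MT-ATP8 and MT-RNR2. In DMSO cells the order of the mRNAs, per length, ran from MT-ATP8 at 27960 ± 2440 TPM to MT-ND6 at 308 ± 28.2 TPM (SD, n = 3), a 90.7-fold span. MT-ND4L came next to MT-ATP8, with 20390 ± 2060 TPM. Of the 12 pairs of neighbours in that order, 7 overlapped between libraries, among them MT-CO3 with MT-ND4 and MT-CO1 with MT-ND1, so their order is not set by these data. MT-ATP8 read 3.36 times as high as MT-ATP6 in DMSO cells although both lie on 1 transcript. The log2 ratio of the 2 was 1.70, 1.74 and 1.84 in long-term cells, against 1.78, 1.74 and 1.74 in DMSO cells, and the groups overlapped.

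Of the 37 genes, 7 tRNAs were listed at 0 in all 18 libraries: MT-TA, MT-TE, MT-TK, MT-TN, MT-TQ, MT-TS1 and MT-TW. The other 30 passed the filter of at least 1 TPM in at least 3 libraries and were tested with 16169 genes in all. Within the 22 tRNAs, MT-TF, MT-TV and MT-TL1, which flank the rRNAs, made up 80.4% to 85.1% of the summed tRNA TPM in every library. The tRNAs measure 59 to 75 bases, close to the 50-base reads, and a poly(A)-selected library is not made to catch mature tRNA, so mature tRNAs and precursors cannot be told apart in these values. MT-TM, MT-TD, MT-TG and MT-TP, each of 68 bases, were whole multiples of 1 step in each of the 18 libraries. The step, the largest that fit, was 1.95 to 24.5 TPM, and whether it was 1 read was not tested. MT-TG stood at only 1 to 8 steps and MT-TD at 2 to 27. Step numbers do not compare between libraries, because the step differed in size. In 144 h replicate 2, with the step of 24.5 TPM, the highest MT-TG of any library was 1 step.

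The set's share of total TPM was higher after long-term treatment than in DMSO cells in every library. All 37 genes held 29.5%, 22.01% and 27.7% of total TPM in the long-term libraries, against 19.8%, 17.7% and 20.6% in the DMSO libraries. The groups did not overlap, and the mean was higher by 7.04 percentage points (SE 2.42; exact permutation test, two-sided, p = 0.1). With 3 libraries against 3 this test cannot give a p below 0.10. Long-term replicate 2 was the lowest of its group for 13 of the 13 mRNAs.
At the other times the share lay between 18.3% and 20.3% at 24 h, 20.1% and 20.5% at 48 h, 15.1% and 24.0% at 96 h, and 18.3% and 22.5% at 144 h. Each of these ranges overlapped that of DMSO. The 96 h libraries stood furthest apart: replicate 1 was lowest and replicate 3 highest for 13 of the 13 mRNAs. Long-term cells exceeded 144 h cells by 6.59 points, but replicate 2 of both groups met (exact p = 0.2).

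The classes did not move alike. The rRNAs held 5.72%, 4.76% and 5.13% of total TPM in long-term cells, against 2.55%, 2.47% and 2.76% in DMSO cells. No library overlapped, and the difference was 2.61 points (SE 0.2925; exact p = 0.1).
The mRNAs held 22.3%, 16.1% and 21.2% in long-term cells, against 15.8%, 13.97% and 16.4% in DMSO cells. Long-term replicate 2 lay within the DMSO range there, and the difference of 4.51 points had an exact p of 0.2.
The tRNAs held 1.43%, 1.14% and 1.36% of total TPM in long-term cells, against 1.45%, 1.27% and 1.47% in DMSO cells. That difference of -0.0862 points was within the spread, and its sign turned, to 0.0572, when set against the TPM of all other genes. As a share of the set's own TPM, which no other gene can move, tRNAs were lower without overlap: 4.86%, 5.19% and 4.91% in long-term cells, against 7.34%, 7.17% and 7.16% in DMSO cells.
At 144 h that share was 6.42%, 6.28% and 6.22%, also under every DMSO library. The earlier times lay under every DMSO library too. They ran from 6.55% to 7.01% at 24 h, 6.66% to 7.03% at 48 h and 6.025% to 6.34% at 96 h. The rRNA share of the set was 19.4%, 21.6% and 18.5% in long-term cells, against 12.9%, 13.97% and 13.4% in DMSO cells.

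**Figure D1:**
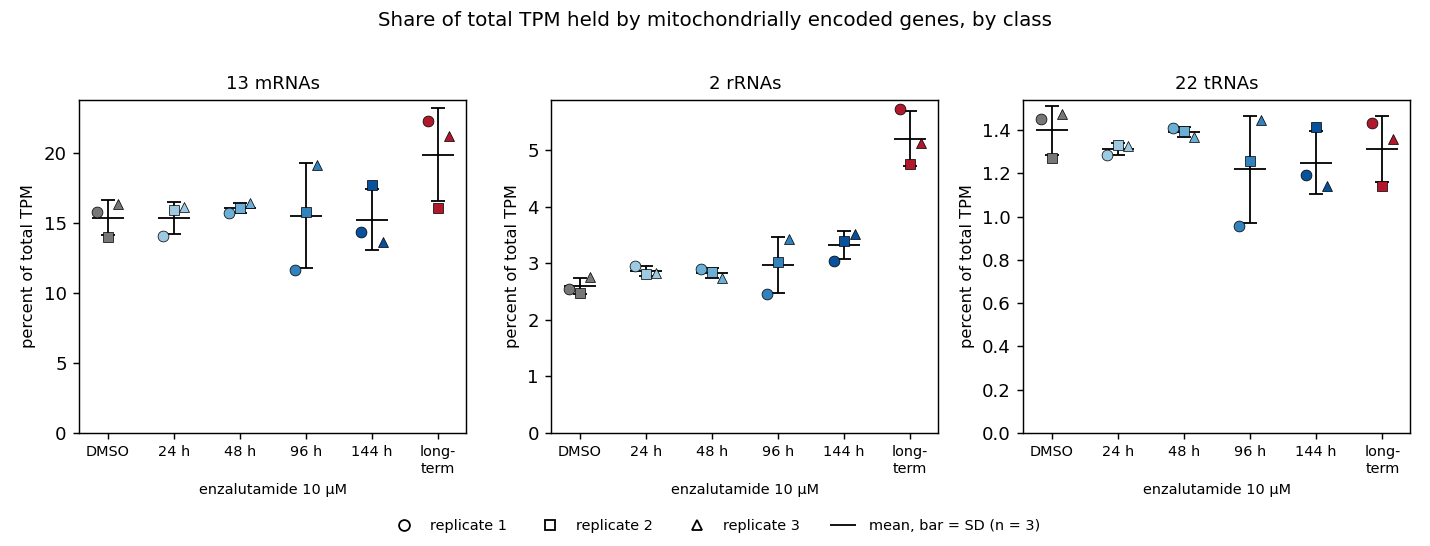
Percent of total TPM held by the mitochondrially encoded mRNAs, rRNAs and tRNAs in each of 18 libraries, by group; symbols are replicates, horizontal lines are means and bars are SD (n = 3). The rRNA share of the 3 long-term libraries, from 4.76% to 5.72%, lies above every other library, while mRNA and tRNA shares overlap with DMSO.

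Gene by gene, few members changed within 144 h and 12 of the 30 tested did after long-term treatment. A gene is called changed at an adjusted p under 0.05 in limma, fitted on log2(TPM + 1) over all 18 libraries with Benjamini-Hochberg adjustment over all genes tested; this scale understates changes of low genes. Against DMSO, 2 of 30 members were called at 24 h (8.17% of all genes tested), none at 48 h (17.5%), 2 at 96 h (29.2%) and 4 at 144 h (42.9%). At 48 h, 2 members had an unadjusted p under 0.05, and a fit of the 6 libraries alone called 2. After long-term treatment 12 were called, 10 higher and 2 lower, where 52.0% of all genes were called, 18.1% higher and 33.9% lower. As a share of the members tested, each of these counts lay under the background, except the higher calls long-term. Libraries did not overlap for 7 members at 144 h (50.1% of all genes) and for 16 long-term (57.4%).
The median log2 fold change of all genes was -0.12 in that comparison, against 0.28 over the 30 members. With median-of-ratios scaling the median of all genes was close to 0 and 49.4% of called genes were higher, against 34.8% as deposited; rescaled to the total of all other genes it was 48.2%. All 10 higher and both lower members kept their direction under each scaling.

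Both rRNAs, the RNA cores of the small and large mitochondrial ribosomal subunits, rose in long-term cells, with log2 fold changes above those of all 13 mRNAs. MT-RNR1, the 12S rRNA, had 9399, 8765 and 8418 TPM in long-term cells, against 3711, 3640 and 3959 TPM in DMSO cells. Every long-term library lay above every DMSO library, a log2 fold change of 1.23 ± 0.10 (SE; limma adjusted p = 2.24e-08).
MT-RNR2, the 16S rRNA, had 47821, 38831 and 42916 TPM in long-term cells, against 21768, 21101 and 23589 TPM in DMSO cells. Again no library overlapped, with a log2 fold change of 0.96 ± 0.10 (limma adjusted p = 7.69e-07). Both calls held whichever library was left out and under every alternative tried.

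At 144 h a smaller rise was present. MT-RNR1 had 5147, 5082 and 6739 TPM, all above DMSO, with a log2 fold change of 0.57 (limma adjusted p = 0.000163) that held without any 1 library, at 0.44 to 0.64. MT-RNR2 had 25305, 28768 and 28505 TPM, with 0.31 (limma adjusted p = 0.0206). That second call did not hold without 144 h replicate 2 or 3 or DMSO replicate 1 or 2 (adjusted p 0.0573 to 0.0715), nor with median-of-ratios scaling (0.238), rescaling to the other genes (0.0608) or no filter (0.104).
Earlier, MT-RNR1 had 4845, 4550 and 4161 TPM at 24 h and 4235, 4108 and 4003 TPM at 48 h, above the DMSO libraries but not called (limma adjusted p = 0.126 and 0.427). It was called at 96 h (4157, 4567 and 5142 TPM; log2 0.29; limma adjusted p = 0.0338). That call did not hold without 96 h replicate 2 or 3 or DMSO replicate 1 or 2 (adjusted p 0.0695 to 0.15). It was also lost with median-of-ratios scaling (0.106), with no filter (0.107) and in a fit of the 6 libraries alone (0.0571). MT-RNR2 was not called at 96 h (log2 0.16; limma adjusted p = 0.258), but was without 96 h replicate 1 (log2 0.3; limma adjusted p = 0.0128).
Long-term cells also exceeded 144 h cells, by 0.66 for MT-RNR1 and 0.65 for MT-RNR2 on the log2 scale (limma adjusted p = 4.31e-05 and 8.34e-05), with no overlap.

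**Figure D2:**
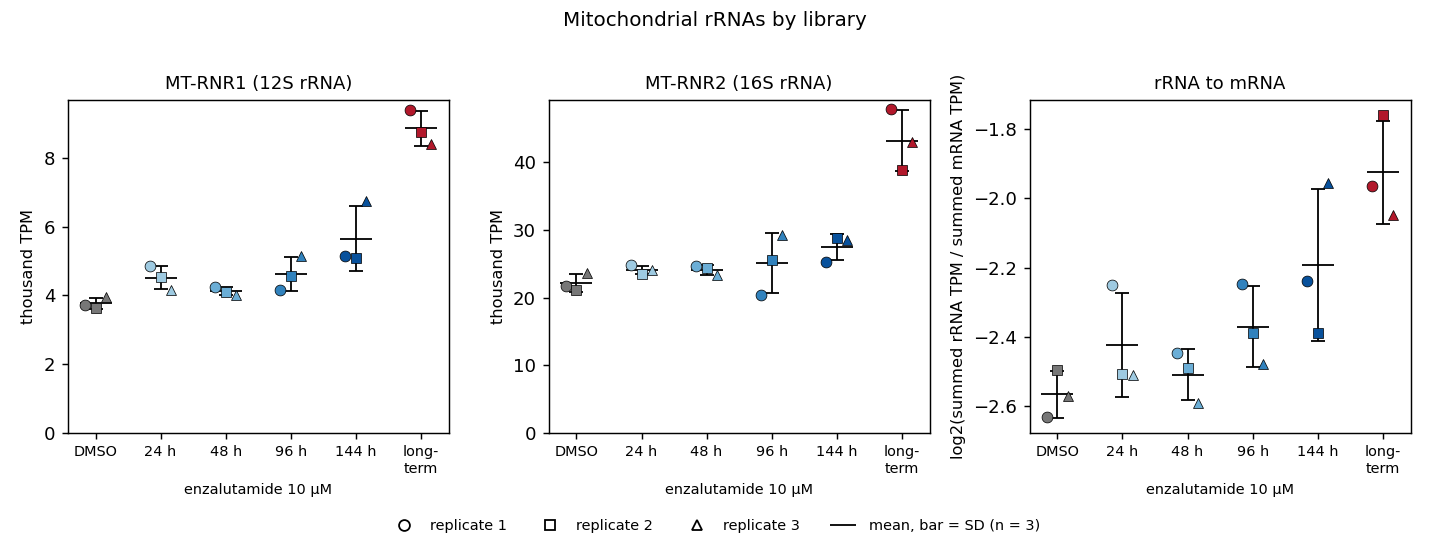
TPM of MT-RNR1 and MT-RNR2 divided by 1000, and the log2 ratio of summed rRNA to summed mRNA TPM, in each library by group; symbols are replicates, lines are means and bars are SD (n = 3). Both rRNAs are highest in the 3 long-term libraries, and the 144 h ratio is widest, from -2.39 to -1.95.

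In poly(A)-selected libraries the ratio of rRNA to mRNA can move with how well each RNA is captured, which was not tested. Within a library it does not depend on the TPM of the rest of the transcriptome. Its log2 was -1.97, -1.76 and -2.05 in long-term cells, against -2.63, -2.50 and -2.57 in DMSO cells, a difference of 0.643 (SE 0.0947; exact p = 0.1) with no overlap. At 144 h it was -2.24, -2.39 and -1.95, above every DMSO library by 0.373 on average, and it overlapped with long-term cells.
The 144 h libraries did not move as one in this ratio: replicate 3 had the highest MT-RNR1 and the lowest level of 10 of 13 mRNAs, and replicate 2 the highest level of all 13.
MT-RNR1 lies upstream of MT-RNR2. The log2 ratio of MT-RNR2 to MT-RNR1 was 2.35, 2.15 and 2.35 in long-term cells, against 2.55, 2.54 and 2.58 in DMSO cells. The groups did not overlap (difference -0.273, SE 0.068; exact p = 0.1), and at 144 h the ratio was 2.30, 2.50 and 2.08, also below DMSO.

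Among the mRNAs all 13 had a higher mean in long-term than in DMSO cells, and 6 were called: MT-CO1, MT-CO2, MT-CO3, MT-ND3, MT-ND5 and MT-CYB. The first 3 are the core subunits of cytochrome c oxidase, complex IV, all encoded in mitochondria. MT-CO1 had 23423, 17902 and 21621 TPM in long-term cells, against 14850, 13475 and 15024 TPM in DMSO cells (log2 0.53 ± 0.14; limma adjusted p = 0.00387).
MT-CO2 had 21717, 14715 and 20322 TPM in long-term cells, against 13124, 11293 and 13509 TPM in DMSO cells (log2 0.57 ± 0.16; limma adjusted p = 0.0081). MT-CO3 had 25312, 18864 and 24138 TPM in long-term cells, against 16510, 15094 and 16776 TPM in DMSO cells (log2 0.49 ± 0.13; limma adjusted p = 0.00445). In each of the 3 even the lowest long-term library, replicate 2, lay above the highest DMSO library, and each call held without any 1 library.

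Complex I, which takes electrons from NADH, has 7 subunits encoded in mitochondria, of which 2 were called. MT-ND3, a subunit near the hinge of the enzyme, had 9567, 6580 and 8760 TPM in long-term cells, against 5422, 4528 and 5852 TPM in DMSO cells (log2 0.65 ± 0.13; limma adjusted p = 0.000598). MT-ND5, at the far end of the membrane arm, had 7011, 5293 and 6639 TPM in long-term cells, against 4588, 3958 and 4583 TPM in DMSO cells (log2 0.52 ± 0.15; limma adjusted p = 0.00906). Neither overlapped with DMSO, and both calls held without any 1 library.
MT-ND1, a subunit at the quinone site, had 14988, 10798 and 14330 TPM in long-term cells, against 13694, 11774 and 13947 TPM in DMSO cells. Its libraries were interleaved, with a log2 difference of 0.01 ± 0.16 (limma adjusted p = 0.949).
The other 4 complex I mRNAs were not called: log2 0.25 for MT-ND2, 0.15 for MT-ND4L, 0.20 for MT-ND4 and 0.20 for MT-ND6 (limma adjusted p 0.118 to 0.44). MT-ND6 is the only mRNA of the light strand, with 396, 315 and 355 TPM in long-term cells, against 337, 280 and 308 TPM in DMSO cells.

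MT-CYB, cytochrome b of complex III, had 16533, 12277 and 16021 TPM in long-term cells, against 11236, 10289 and 11451 TPM in DMSO cells. No library overlapped, with log2 0.43 ± 0.14 (limma adjusted p = 0.0142), but the call was lost without long-term replicate 1 or 3 or DMSO replicate 2 (adjusted p 0.0551 to 0.0697) and with no filter (0.0518). For complex V, MT-ATP8 (log2 0.36; limma adjusted p = 0.099) and MT-ATP6 (log2 0.35; limma adjusted p = 0.091) were not called, and long-term replicate 2 overlapped with DMSO for both.
Within 144 h no mRNA was called against DMSO in any of the 4 comparisons. At 24, 48 and 96 h none of the 13 had an unadjusted p under 0.05, and at 144 h 1 had; MT-ND3, with 5852, 6896 and 6660 TPM, was the one furthest from DMSO at 144 h, at log2 0.30.

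At 144 h against 24 h, 3 members were called by level, where 29.7% of all genes were, and 1 relative to the 13 mRNAs, where 4.87% were. Against 144 h cells, where 46.1% of all genes were called, 10 members were called in long-term cells, 9 higher and 1 lower. Besides both rRNAs these were MT-CO1 (log2 0.50), MT-CO3 (0.51), MT-CO2 (0.52), MT-CYB (0.37), MT-ND3 (0.35), MT-ND6 (0.35) and MT-TL2 (0.65), with MT-TG lower. Of all genes 9.23% were higher and 36.8% lower, and libraries did not overlap for 8 members (47.8% of all genes). MT-CO1 had 14256, 17004 and 13108 TPM and MT-CO3 had 15260, 17872 and 14677 TPM at 144 h, all below every long-term library.
The calls of both and of MT-TL2 held without any 1 library. Those of MT-CO2, MT-CYB, MT-ND3 and MT-ND6 were lost without 144 h replicate 1 or long-term replicate 1, and those of all 4 but MT-ND6 also without replicate 3 of either group (adjusted p up to 0.201). With no filter the calls of MT-CO2, MT-CYB and MT-ND3 were lost too (0.0561 to 0.115). In a fit of the 6 libraries alone those of MT-CYB and MT-ND3 were lost (0.0682 and 0.094). Without long-term replicate 2 the count was 18, and without 144 h replicate 2 it was 16. It was 5 without long-term replicate 1 or 144 h replicate 1, 6 without long-term replicate 3 and 17 with median-of-ratios scaling. The median of all genes stood at -0.19 in this comparison, and called genes were 20.04% higher as deposited, 52.1% with median-of-ratios scaling and 35.2% rescaled to the other genes.

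Set against the sum of the 13 mRNAs, a scale that no gene outside the set can move, members differed in their changes. Each gene was fitted here as its TPM scaled to the TPM of those mRNAs. In long-term cells against DMSO, 13 of 30 members were called, 4 higher and 9 lower, where 43.4% of all genes were called, 6.09% higher and 37.3% lower.
MT-ND1 held 6.71% to 6.75% of mRNA TPM in the 3 long-term libraries, against 8.43% to 8.67% in DMSO cells. The 2 ranges lay far apart for their width, and the relative log2 change of -0.35 ± 0.07 (limma adjusted p = 0.00095) held without any 1 library and under every alternative tried. MT-ND4L also fell (-0.21; 11.3% to 11.7% of mRNA TPM, against 12.9% to 13.4% in DMSO cells), while MT-CO2 (0.21; 9.14% to 9.72%, against 8.08% to 8.31%) and MT-ND3 (0.29; 4.09% to 4.28%, against 3.24% to 3.58%) rose.
These 3 calls (limma adjusted p = 0.0223, 0.0271 and 0.0303) did not hold in most of the fits that left out 1 library, or in a fit of the 6 libraries alone. With both rRNAs added to the denominator, MT-CO2 and MT-ND3 were no longer called (0.278 and 0.121).
In all, 10 of 13 mRNA shares did not overlap between long-term and DMSO cells, where 48.4% of all genes did not overlap on this scale. MT-ATP8, MT-ATP6 and MT-ND6 were the 3 that overlapped. At 24, 48 and 96 h no member was called on this scale (1.42%, 2.95% and 6.53% of all genes), with 3, 2 and 3 at an unadjusted p under 0.05.
At 144 h, 5 members were (14.1%): MT-RNR1, MT-RNR2 and MT-ND3 higher, MT-TI and MT-TM lower. Of these only MT-TI (-0.64) kept its call without any 1 library; the others lost it without 144 h replicate 1 and without DMSO replicate 1 (adjusted p 0.0514 to 0.12).

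**Figure D3:**
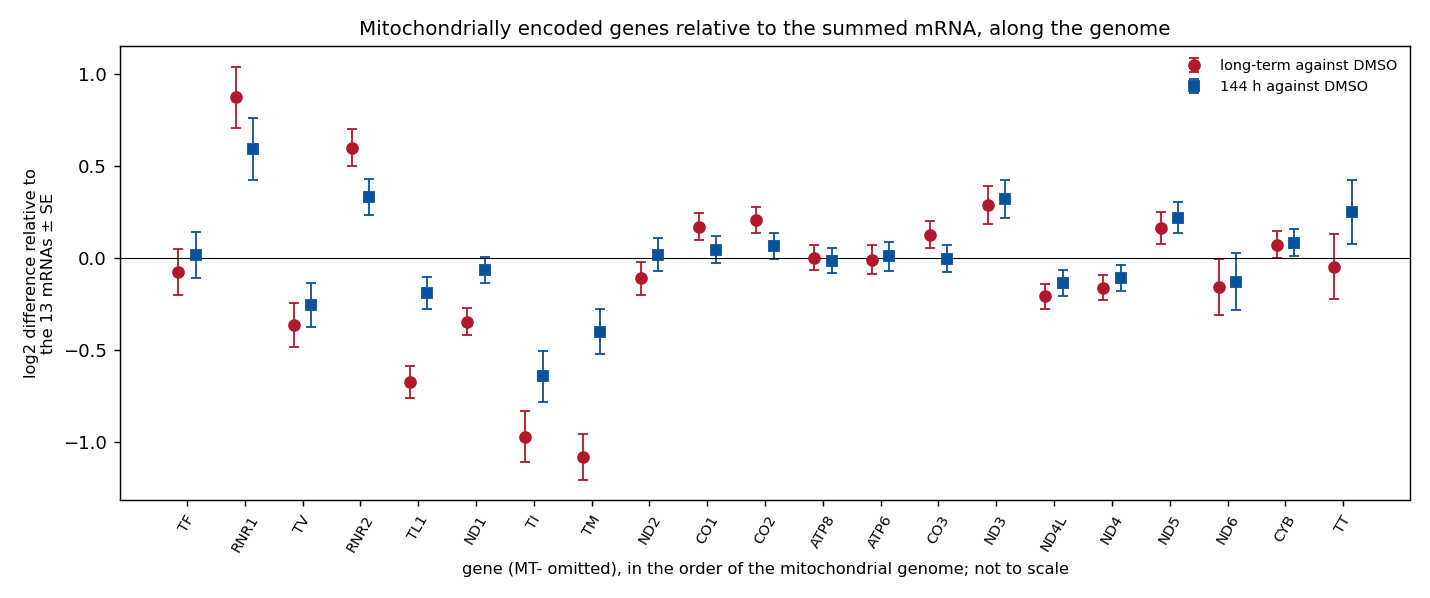
Log2 difference relative to the summed TPM of the 13 mRNAs, with SE, for the 21 genes that averaged at least 200 TPM, in their order on the mitochondrial genome; circles are long-term cells against DMSO and squares 144 h cells against DMSO (n = 3 libraries a group). Long-term values are highest for the rRNAs (0.87 and 0.60), lowest for MT-TM (-1.08) and MT-TI (-0.97), and below 0 for MT-TL1 and MT-ND1 between them.

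By enzyme, complex IV mRNAs were higher relative to complex I mRNAs in every long-term library than in any other library. The log2 ratio of summed complex IV to summed complex I mRNA was -0.244, -0.237 and -0.249 in long-term cells, against -0.557, -0.507 and -0.582 in DMSO cells. The 3 long-term libraries were nearly the same, although their mRNA shares of total TPM ran from 16.1% to 22.3%. The difference was 0.305 (SE 0.0222; exact p = 0.1), with no overlap.
All 12 libraries of 24 to 144 h lay between -0.567 and -0.460, under every long-term library. Against 144 h cells, at -0.460, -0.518 and -0.466, long-term cells were higher by 0.238 with no overlap (exact p = 0.1).
Complex I mRNAs made up 37.4%, 37.7% and 36.97% of mRNA TPM in long-term cells, against 41.4%, 40.6% and 41.4% in DMSO cells. They did not move alike. The shares of MT-ND3 and MT-ND5 (3.13% to 3.29%, against 2.8% to 2.90% in DMSO cells) were higher without overlap. Those of MT-ND1, MT-ND2, MT-ND4L and MT-ND4 were lower without overlap, and that of MT-ND6 overlapped. Complex IV mRNAs made up 31.5%, 32.0% and 31.1% in long-term cells, against 28.2%, 28.5% and 27.7% in DMSO cells. Complex V shares, 23.7%, 22.7% and 24.4% in long-term cells against 23.3%, 23.6% and 23.9% in DMSO cells, overlapped.
MT-CYB, the last mRNA in genome order, was also set against MT-ND1, the first. The log2 ratio was 0.142, 0.185 and 0.161 in long-term cells, against -0.286, -0.195 and -0.285 in DMSO cells, a difference of 0.417 (SE 0.0327; exact p = 0.1). At 144 h it was -0.113, -0.162 and -0.0397, above DMSO and below long-term cells without overlap. The MT-CYB share of mRNA TPM overlapped between 144 h (7.37% to 7.72%) and long-term cells (7.40% to 7.62%). That of MT-ND1 did not, at 7.93% to 8.30% and 6.71% to 6.75%.

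The end of the rRNA block lies where MT-RNR2 meets MT-TL1. MT-RNR2 and MT-TL1 touch, and the log2 ratio of their TPM was 3.06, 3.23 and 3.01 in long-term cells, against 1.75, 1.91 and 1.82 in DMSO cells. The groups did not overlap, and the difference was 1.27 (SE 0.0824; exact p = 0.1). MT-TL1 encodes a leucine tRNA, and the factor MTERF1 is known to bind DNA within it. The part of MTERF1 in this ratio was not tested.
At 144 h this ratio was 2.24, 2.18 and 2.62, between the other groups and overlapping neither. The ratio of MT-RNR2 to MT-ND1, on the far side of MT-TL1, was 1.67, 1.85 and 1.58 in long-term cells, against 0.669, 0.842 and 0.758 in DMSO cells (difference 0.945; exact p = 0.1). Inside the block, MT-TV touches both rRNAs. It had 1722, 1283 and 1573 TPM in long-term cells, against 1602, 1434 and 1525 TPM in DMSO cells, and overlapped. Both rRNAs rose, so a rise against a touching tRNA was not particular to this end of the block.

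Of the tRNAs, MT-TI and MT-TM were lower in long-term than in DMSO cells on both scales and in every fit that left out 1 library. MT-TI, the isoleucine tRNA next to MT-ND1, had 340, 275 and 355 TPM in long-term cells, against 488, 490 and 493 TPM in DMSO cells (log2 -0.61 ± 0.12; limma adjusted p = 0.000665). It was also lower at 144 h (287, 371 and 280 TPM; log2 -0.66; limma adjusted p = 0.000458) and at 96 h (305, 375 and 417 TPM; log2 -0.44; limma adjusted p = 0.0149), where the call was lost without 96 h replicate 1 (0.0801). At 24 h (353, 382 and 439 TPM) and 48 h (362, 407 and 387 TPM) every library was also below DMSO. MT-TI was not called at those times (limma adjusted p = 0.131 and 0.0672).
MT-TM, the methionine tRNA before MT-ND2, had 801, 595 and 781 TPM in long-term cells, against 1171, 1068 and 1326 TPM in DMSO cells (log2 -0.72 ± 0.17; limma adjusted p = 0.00167). Neither tRNA had a library in common range with DMSO. MT-TL1 had 5739, 4141 and 5347 TPM in long-term cells, against 6477, 5609 and 6682 TPM in DMSO cells, which overlapped (log2 -0.31; limma adjusted p = 0.0939).
Relative to the mRNAs, MT-TL1 fell by 0.67 on the log2 scale (limma adjusted p = 6.48e-06), MT-TI by 0.97 and MT-TM by 1.08, each also without any 1 library and in every alternative. Of 5 members called on that scale in long-term against 144 h cells (47.2% of all genes), MT-TL1 and MT-TM were lower (-0.48 and -0.68; limma adjusted p = 0.00037 and 0.000356). MT-TV fell by 0.36 (limma adjusted p = 0.0194) against DMSO, which was lost without long-term replicate 1 or 3 or DMSO replicate 1 or 2 (adjusted p 0.0576 to 0.0825). It was also lost in a fit of the 6 libraries alone (0.0563). The other 3 called lower on that scale were low tRNAs, MT-TD (-0.97), MT-TG (-1.22) and MT-TP (-0.75), and each call was lost without at least 1 library (adjusted p up to 0.323).

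The low tRNAs varied more. MT-TC and MT-TL2 were called higher in long-term cells than in DMSO cells (log2 0.82 and 0.54; limma adjusted p = 0.0451 and 0.0102). MT-TC had 62.4, 87.1 and 114 TPM in long-term cells, against 46.5, 35.6 and 65.4 TPM in DMSO cells, and its groups overlapped.
Neither call held without long-term replicate 3 or DMSO replicate 1 (adjusted p 0.0536 to 0.178). That of MT-TC was also lost without long-term replicate 2 or DMSO replicate 2, and with no filter (0.111). At 24 h, MT-TL2 was higher (59.1, 91.9 and 63.3 TPM, against 40.2, 55.3 and 44.8 TPM in DMSO cells; log2 0.59; limma adjusted p = 0.0338) and MT-TG lower (9.41, 2.87 and 4.71 TPM, against 16.2, 12.3 and 16.4 TPM; log2 -1.37; limma adjusted p = 0.0284). Both were lost without 24 h replicate 2, DMSO replicate 1 or DMSO replicate 3 and with no filter, and that of MT-TG also without 24 h replicate 3. In a fit of the 6 libraries alone both were lost too (limma adjusted p = 0.129 for MT-TL2 and 0.071 for MT-TG). The MT-TL2 call was also lost with median-of-ratios scaling (0.056). MT-TG was near the floor there, at 2, 1 and 2 steps of 4.703, 2.866 and 2.356 TPM at 24 h. In DMSO cells it was at 7, 5 and 7 steps of 2.32, 2.455 and 2.348 TPM. Steps of unlike size do not compare directly.
MT-TP was lower at 144 h (47.5, 49.1 and 69.0 TPM, against 65.0, 106 and 77.5 TPM in DMSO cells; log2 -0.57; limma adjusted p = 0.0439), a call lost without 144 h replicate 1 or 2 or DMSO replicate 2 or 3. That call was also lost with no filter (limma adjusted p = 0.109) and in a fit of the 6 libraries alone (0.072).
MT-TF, the tRNA before the rRNAs, had 4748, 4112 and 4395 TPM in long-term cells, against 3907, 3171 and 3845 TPM in DMSO cells, with no overlap but no call (log2 0.28; limma adjusted p = 0.0581). Of the tested tRNAs, MT-TF, MT-TL1, MT-TV, MT-TY, MT-TD, MT-TR, MT-TH, MT-TS2 and MT-TT, were called in no comparison of levels, with means over 18 libraries of at least 10 TPM for all but MT-TR.

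**Figure D4:**
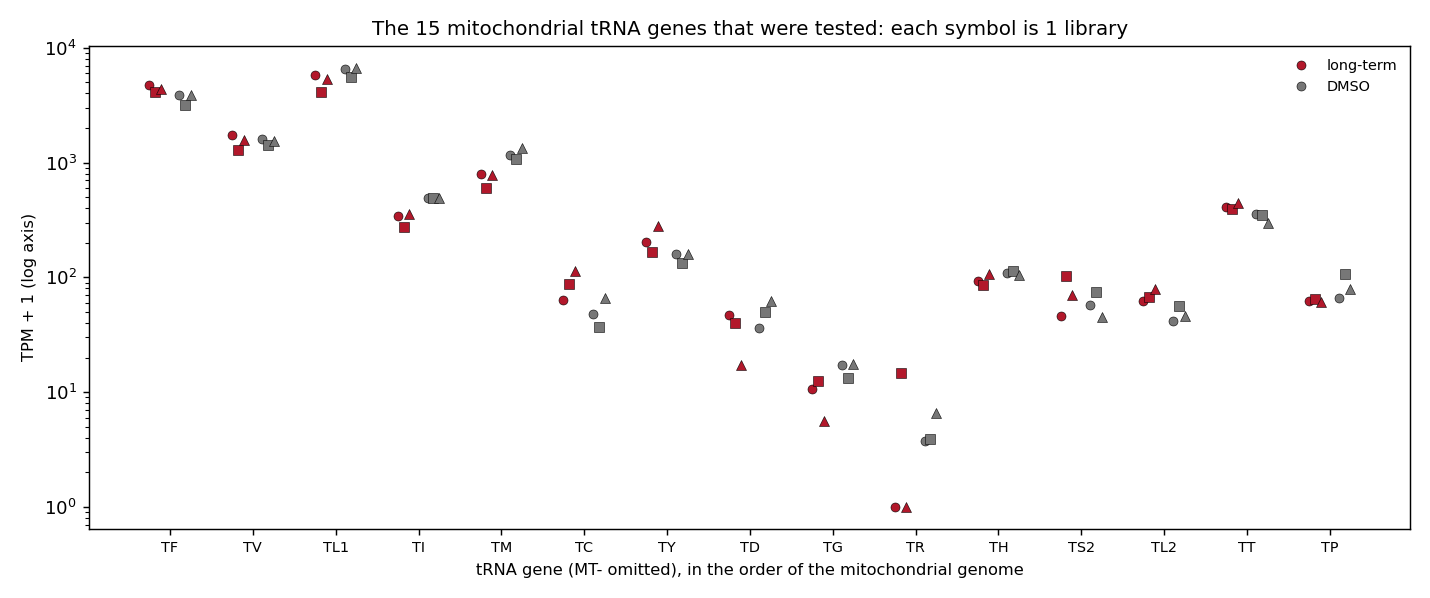
TPM + 1, on a log axis, of the 15 tRNA genes that were tested, in genome order, in the 3 long-term (left) and 3 DMSO (right) libraries; each symbol is 1 library and its shape the replicate. MT-TI and MT-TM are lower in all long-term libraries, and MT-TR is listed at 0 TPM in 2 of them.

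The nuclear genes that serve this genome were set beside it, from lists of genes by role. In long-term cells against DMSO, 2 of 9 genes of mitochondrial transcription were called higher and 4 lower, where 18.1% of all genes were higher and 33.9% lower. POLRMT, the mitochondrial RNA polymerase, averaged 32.5 ± 2.66 TPM in long-term cells and 25.7 ± 1.68 TPM in DMSO cells (log2 0.33; limma adjusted p = 0.00658). TFAM, which packages mitochondrial DNA and helps start its transcription, averaged 27.6 ± 1.95 TPM in long-term cells and 45.0 ± 2.58 TPM in DMSO cells (log2 -0.69), and TFB2M, an initiation factor, had a log2 of -0.28 (limma adjusted p = 0.0179). The TFB2M call was lost with median-of-ratios scaling (0.063), with rescaling to the other genes (0.0626) and in a fit of the 6 libraries alone (0.0653). It was also lost without long-term replicate 1 or 3 or DMSO replicate 2 (up to 0.0962).
TEFM, the elongation factor, was not called (log2 -0.10). MTERF4 and MTERF1, of the family named for transcription termination, were lower (log2 -0.60 and -0.33), MTERF1 not without long-term replicate 3 (limma adjusted p = 0.0533). With median-of-ratios scaling 3 genes of this list were higher and 3 lower, where 49.4% of all called genes were higher. At 144 h TFAM was at 31.9 ± 2.43 TPM (log2 -0.49 against DMSO), and POLRMT, at 25.3 ± 1.40 TPM, was not called.
Of 45 genes of mitochondrial RNA processing and turnover, 2 were called higher and 25 lower in long-term cells (18.1% and 33.9% of all genes). LRPPRC and SLIRP, partners that stabilise mitochondrial mRNAs, were lower (log2 -0.34 and -0.45), as was PNPT1, a polynucleotide phosphorylase (24.8 ± 0.761 TPM in long-term cells and 52.1 ± 5.47 TPM in DMSO cells; log2 -1.04). REXO2, which degrades short RNA fragments, was higher (log2 0.56). With median-of-ratios scaling 4 of the list were higher and 20 lower, where 49.4% of all called genes were higher. LRPPRC was not called with that scaling (limma adjusted p = 0.0528).
The list's median log2 was -0.27, beside -0.12 over all genes. At 144 h it had 2 higher and 17 lower of 45, with a median of -0.14 beside 0.07. In number the calls were close to the 42.9% of all genes called, but not in direction. Most of the list's calls were lower, while 61.9% of all called genes were higher. Of 25 genes of mitochondrial DNA replication and nucleoids, 4 were higher and 14 lower in long-term cells (18.1% and 33.9% of all genes). With median-of-ratios scaling 5 were higher and 10 lower, where 49.4% of all called genes were higher. The nucleotide carrier SLC25A33 fell (log2 -1.25) and TYMP, thymidine phosphorylase, rose (log2 1.52). Of 11 tested regulators of mitochondrial biogenesis, 2 were higher and 5 lower (18.1% and 33.9% of all genes), with PPRC1 and NRF1 among the lower (log2 -0.52 and -0.51), and PPARGC1A did not pass the filter.

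The summed nuclear subunits of the same complexes overlapped between long-term and DMSO cells. Their level was 29730, 30530 and 29800 TPM in long-term cells, against 31120, 30280 and 31380 TPM in DMSO cells. The log2 ratio of mitochondrial to nuclear subunit mRNA was 2.91, 2.40 and 2.83 in long-term cells, against 2.34, 2.21 and 2.38 in DMSO cells (difference 0.403, SE 0.168; exact p = 0.1). Replicate 2 again lay lowest, just above the highest DMSO library, and at 144 h the ratio ran from 2.05 to 2.59. By complex, the ratio did not overlap with DMSO for complex IV, at 3.43, 2.96 and 3.34 in long-term cells, against 2.85, 2.77 and 2.83 in DMSO cells. For complexes I, III and V long-term replicate 2 lay within the DMSO range.
In complex I, 7 of 37 nuclear subunits were called higher and 11 lower in long-term cells, where 52.0% of all genes were called, 18.1% higher and 33.9% lower; the smallest adjusted p was that of NDUFB4 (log2 -0.89). In complex III 4 of 9 were higher and 1 lower, with UQCRB at log2 0.49. In complex IV 2 of 11 were higher and none lower, COX6C (log2 0.50) and NDUFA4 (0.37), and in complex V 3 of 18 were higher and 7 lower. The split depended on the scale: with median-of-ratios scaling complex I had 14 higher and 6 lower, complex III 5 and 0, complex IV 6 and 0, and complex V 4 and 3. Of all called genes 49.4% were higher with that scaling, against 34.8% as deposited.
Summed nuclear complex I mRNA was 9988, 10380 and 10030 TPM in long-term cells, against 11360, 11050 and 11440 TPM in DMSO cells, lower without overlap as deposited. Summed nuclear complex IV mRNA was 6535, 6614 and 6514 TPM in long-term cells, against 6161, 5860 and 6390 TPM in DMSO cells, higher without overlap. Complex III was also higher without overlap, at 3844 to 3944 TPM in long-term cells against 3402 to 3474 TPM in DMSO cells. Complex V was lower, at 9361 to 9590 TPM in long-term cells against 9969 to 10120 TPM in DMSO cells. These sums are as deposited and were not rescaled, and a larger mitochondrial share leaves less of the total to them. Rescaled to the other genes, the median log2 of the subunits turned from -0.09 to 0.04 in complex I. In complex V it turned from -0.09 to 0.05.

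**Figure D5:**
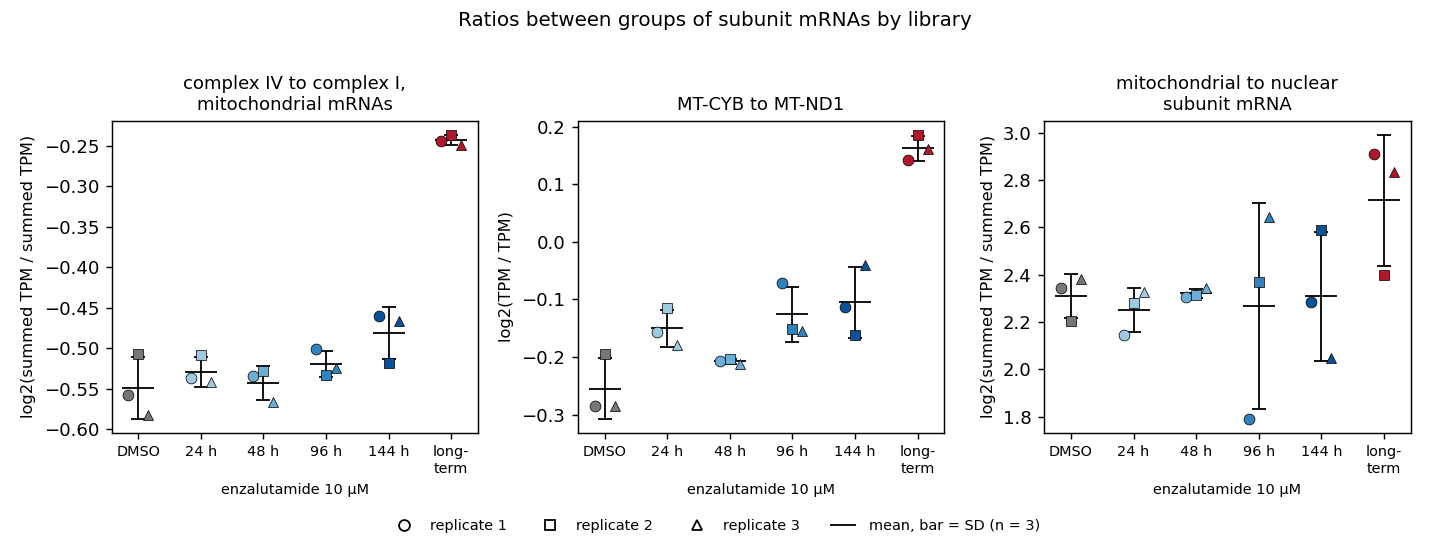
Log2 ratios of summed complex IV to summed complex I mitochondrial mRNA, of MT-CYB to MT-ND1, and of mitochondrial to nuclear subunit mRNA, in each library by group; symbols are replicates, lines are means and bars are SD (n = 3). The first 2 ratios are tight in the long-term group and above every other library, while the last is spread, from 2.40 to 2.91 in long-term cells.

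Over the 12 libraries of 24, 48, 96 and 144 h, 10 relations to time were tested by permutation (100000 resamples, two-sided). The total share had the weakest relation (Pearson r = -0.00408, p = 0.99, adjusted p = 0.99; Spearman rho = -0.0432, p = 0.918). The complex IV to I ratio had r = 0.69 (p = 0.0112, adjusted p = 0.112) and rho = 0.669 (p = 0.0233, adjusted p = 0.116). The rRNA to mRNA ratio had r = 0.601 (p = 0.0331, adjusted p = 0.138) and rho = 0.669 (p = 0.0229, adjusted p = 0.116), and the rRNA share had r = 0.597 (p = 0.0414, adjusted p = 0.138).
None passed the adjustment. Leaving out 2 of the 144 h libraries, those furthest in time, gave r of 0.366 to 0.673, 0.287 to 0.667 and 0.284 to 0.548 for these 3 measures, and without all 144 h libraries r was 0.311, 0.274 and 0.203.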

How the data were processed

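Libraries had poly(A) selection and kept strand, and single reads of 50 bases were taken, per the labels' protocols. Partek, RSEM and STAR, and GRCh38 or hg38 as builds, appear in the submitters' processing notes without role or version. The authors deposited TPM per gene, which was the only unit used; their 3 columns of group means and their fold columns were not used. Every library sums to the same total within rounding, so depth is unknown.

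The 37 members were matched by symbol, and positions and sequences came from GENCODE 29. Members, gene lists and tests were chosen with earlier results of these data known. All 37 members are accounted for; the mRNAs and rRNAs are given with values, tRNAs by name where they average at least 10 TPM or are called, and from each nuclear list the named machinery genes and some of its called members with the smallest adjusted p.

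Genes with at least 1 TPM in at least 3 libraries (16169) were tested on log2(TPM + 1) with limma 3.58.1 (R 4.3.3), with a variance trend, in 1 model of 6 group means and 7 comparisons, two-sided. Benjamini-Hochberg adjustment was over all genes tested. A second fit used TPM scaled to the TPM of the 13 mRNAs. The fit was tested on simulated data. Shares and ratios were compared with exact permutation tests in scipy 1.17.1 (Python 3.11.15). The alternatives tried: filters of 5 TPM and none, 0.1 as pseudocount, median-of-ratios scaling, rescaling to all other genes, other denominators, the replicate number as a block, a fit of 6 libraries, and leaving out each library.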

Additional observations from a re-analysis of the deposited data

Results flagged for a closer look

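Effects of enzalutamide at different times were compared directly with each other, and members called there are listed as results that differ between groups (limma, adjusted over all genes). At 144 h against 24 h, where 29.7% of all genes were called, MT-RNR1 was higher (log2 0.31) and so was MT-TG (1.5), while MT-TL2 was lower (-0.69). The MT-RNR1 call was lost without 24 h replicate 2 or 3 or 144 h replicate 3 (adjusted p 0.0504 to 0.102), with median-of-ratios scaling (0.135), with no filter (0.0744) and in a fit of the 6 libraries alone (0.118). The MT-TG call was lost in a fit of the 6 libraries alone (0.0545), and its libraries overlapped. MT-TG was low in every group, at 2.87 to 24.5 TPM in any library.

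In long-term against 144 h cells, MT-RNR1 (0.66), MT-RNR2 (0.65), MT-CO1 (0.50), MT-CO2 (0.52), MT-CO3 (0.51), MT-ND3 (0.35), MT-ND6 (0.35), MT-CYB (0.37) and MT-TL2 (0.65) were higher and MT-TG (-0.93) lower. Of these, MT-RNR1, MT-RNR2, MT-CO1, MT-CO3 and MT-TL2 kept their call without any 1 library. The MT-TG call was lost without replicate 1 or 2 at 144 h or replicate 1 or 3 long-term (adjusted p up to 0.24). It was also lost with a pseudocount of 0.1 (0.0557), no filter (0.12), median-of-ratios scaling (0.136), rescaling to the other genes (0.0949) and a fit of the 6 libraries alone (0.102).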

How the results depend on the processing

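The count of members called at 24 h was 2, and 0 with no filter, 1 with median-of-ratios scaling, 0 in the fit of 6 libraries and 0 to 2 with 1 library left out. At 48 h it was 0, and 2 in the fit of 6 libraries. At 96 h it was 2, and 1 with no filter or 6 libraries and 1 to 3 with 1 library left out. At 144 h it was 4, and 2 with no filter. For long-term against 144 h it was 10, and 6 with no filter, 17 with median-of-ratios scaling and 5 to 18 with 1 library left out; for long-term against DMSO it stayed between 9 and 18. Of the mRNAs relative to the 13, the 1 called at 144 h became 0 with a pseudocount of 0.1, the rRNAs in the denominator or 6 libraries, and 0 to 1 with 1 library left out. The 4 called long-term against DMSO became 1 with 6 libraries and 1 to 4 with 1 library left out; the 1 against 144 h became 0 with 6 libraries, and at 144 h against 24 h it was 0 to 1. Nuclear subunits called at 144 h were 21, 33 with median-of-ratios scaling and 13 with 6 libraries. The cause of these changes was not tested. The tRNA share long-term against DMSO turned to 0.0572 against other genes. With 1 library left out, the 144 h difference from DMSO ran from -0.905 to 1.19 points for the whole share and from -1.37 to 0.665 for the mRNA share.

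Replicate numbers recur in every group, but the labels do not say that they pair libraries. Over 45 same-numbered pairs the deviations from group means correlated with a median r of 0.00368 (5 pairs over 0.1), and 4 of 18 libraries correlated best with their own number. With the number as a block, counts of members called were 2, 0, 3, 5 and 12 against DMSO in order of time, and the 1 mRNA called relative to the 13 at 144 h became 0. Depth is unknown, and counting error was not set beside the spread.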
